A study of Mus musculus with 2 samples.

Results

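Border and perivascular macrophages of the mouse retina were described here in 2 single-cell RNA-Seq libraries of CD11b+F4/80+ cells. A cell was counted as such a macrophage when at most 20% of its unique molecular identifiers (UMIs, 1 per captured mRNA molecule) came from mitochondrial genes, when at least 3 of the 6 genes Mrc1, Pf4, Lyve1, Ms4a7, Cd163 and F13a1 had at least 1 UMI, and when Top2a and Mki67, genes of dividing cells, had at most 1 UMI together. The cells were thus chosen by their counts of these genes, and the rule took 213 of 2708 cells, 88 of 1449 in the room air (RA) library and 125 of 1259 in the oxygen-induced retinopathy (OIR) library. Both libraries came from retinas of C57BL/6j pups at P17, pooled before the sort. In OIR, pups breathe raised oxygen and are then returned to room air, after which new vessels grow out of the retina, and the RA pups stayed in room air as controls. The groups were taken from the titles and disease states of the samples. The treatment protocol in the labels mentions oxygen-induced retinopathy for both. Microglia for comparison were the 731 RA and 429 OIR cells with UMIs of both P2ry12 and Tmem119 and of none of the 6 genes. Since each condition had 1 library of pooled retinas, no test between conditions was possible, and all intervals are 95% exact intervals that cover counting error only.

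The macrophages were sequenced to a median of 11659 UMIs (range 1054 to 62441) in RA and 7428 UMIs (range 536 to 58316) in OIR, and the microglia to 10344 and 8799 UMIs. A level is the number of UMIs of a gene in all cells of a group, scaled to 1000000 UMIs of the group and abbreviated CPM, and log2 ratios compare such levels. The reads came from the 3′ ends of transcripts, so levels were not divided by gene length. The RA macrophages held 1374109 UMIs in all and the OIR macrophages 1308362 UMIs. No cell barcode was shared by the libraries (0 in common). Of the 1324 RA and 1204 OIR cells under the mitochondrial limit, the macrophages made up 6.65% (5.36% to 8.12%) in RA and 10.4% (8.72% to 12.2%) in OIR. Without those that held no Malat1 UMI the shares were 5.66% and 6.73%, and without those that held P2ry12 or Tmem119 they were 0.982% and 4.15%. These shares belong to 1 sort each and are not rates in the retina.

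Microglia live within the neural retina, whereas a smaller set of macrophages lines its borders, at the vessels, the optic nerve head, the ciliary body and the vitreal surface. Such border macrophages are known for scavenger and lectin receptors, which take up proteins, lipids and glycans from blood and tissue fluid, and part of them carries the hyaluronan receptor LYVE1. They depend, as microglia do, on signals through the CSF1 receptor, and the transcription factor MAF is among those known to shape them. The position of a cell was not recorded in these data, so the name rests on transcripts alone.

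The 6 genes that chose the cells are given first, as a description. Pf4, which encodes the chemokine platelet factor 4, stood at 2706 CPM in RA and 1855 CPM in OIR, with UMIs in 86 of 88 RA and 122 of 125 OIR macrophages. Mrc1, the mannose receptor CD206, stood at 980.3 CPM in RA and 1426 CPM in OIR and was found in 87 RA and 118 OIR cells. Ms4a7, a membrane protein of the tetraspan MS4A family, stood at 782 CPM in RA and 822 CPM in OIR, in 85 and 114 cells. These 3 genes were found in nearly all of the chosen cells and the remaining 3 in part of them. The rule of at least 3 genes partly set these shares. F13a1, the A subunit of coagulation factor XIII, stood at 405 CPM in RA and 617 CPM in OIR, in 64 and 97 cells. Lyve1 stood at 373 CPM in RA and 567 CPM in OIR, in 46 and 75 cells, and Cd163, the receptor for haemoglobin bound to haptoglobin, at 123 CPM in RA and 278 CPM in OIR, in 43 and 72 cells. Among single cells the median of Lyve1 was 0.787 UMIs per 10000 in RA and 2.21 in OIR, with maxima of 51.1 and 52.6.

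In RefSeq (GRCm38.p6) Mrc1 lies on chromosome 2 (14229414 to 14332023), Pf4 on chromosome 5 (90772435 to 90773383), Cd163 on chromosome 6 (124304636 to 124330529), Lyve1 on chromosome 7 (110850607 to 110862953), F13a1 on chromosome 13 (36867178 to 37050244) and Ms4a7 on chromosome 19 (11321039 to 11336146). The 250 bases before the start of the gene are shown for 3 of the 6, because the 6 genes move together by the choice of the cells and these windows hold GAGGAA, the core of the PU box bound by the myeloid factor PU.1. This factor is encoded by Spi1, which stood at 466 CPM in RA and 605 CPM in OIR macrophages. Capitals mark these letters or, for a match on the opposite strand, their reverse complement, and each window is read 5′ to 3′ on the strand of the gene.
Mrc1, chr2:14229164-14229413, plus strand: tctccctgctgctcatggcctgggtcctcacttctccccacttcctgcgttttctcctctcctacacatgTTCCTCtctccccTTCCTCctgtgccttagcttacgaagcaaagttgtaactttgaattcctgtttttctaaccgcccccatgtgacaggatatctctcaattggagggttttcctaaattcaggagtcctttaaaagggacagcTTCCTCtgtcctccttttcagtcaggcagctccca
Pf4, chr5:90772185-90772434, plus strand: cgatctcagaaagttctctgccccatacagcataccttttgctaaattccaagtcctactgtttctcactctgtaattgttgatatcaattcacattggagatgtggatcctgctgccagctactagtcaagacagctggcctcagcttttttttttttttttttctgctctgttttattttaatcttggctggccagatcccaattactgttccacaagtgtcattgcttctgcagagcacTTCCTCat
F13a1, chr13:37050245-37050494, minus strand: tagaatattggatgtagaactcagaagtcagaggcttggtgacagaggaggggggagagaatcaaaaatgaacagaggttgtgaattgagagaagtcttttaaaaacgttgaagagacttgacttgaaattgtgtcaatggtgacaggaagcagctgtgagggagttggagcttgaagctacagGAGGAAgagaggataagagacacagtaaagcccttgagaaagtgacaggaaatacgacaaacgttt
The Mrc1 window held 3 matches and those of Pf4 and F13a1 1 each, the one of Pf4 starting 8 bases before the start of the gene. No match was found in the windows of Ms4a7 and Cd163. Among all 32851 windows of the same length, 23.3% held GAGGAA on either strand, so a match is common. TGCTGA, a core motif of MAF factors, was searched in the same way, and 0 of the 5 windows held it, against 16.1% of all windows.

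In RA, 23 macrophages held 3 of the 6 genes, 12 held 4, 24 held 5 and 29 held all 6, and in OIR the counts were 28, 23, 22 and 52. Just outside the limit, 13 RA and 18 OIR cells held exactly 2 of the genes, fewer than the 59 and 46 with 1. The cells with 3 genes carried Pf4 at 833 CPM in RA and 839.9 CPM in OIR, whereas those with exactly 2 carried 305 and 45.9 CPM. Ccr2, the chemokine receptor of monocytes, stood at 210.3 and 155 CPM in the cells with 2 genes and at 15.1 and 0 CPM in those with 3. Pf4 is counted by the rule, whereas Ccr2, which it did not use, was higher in the cells just outside than in those just inside. The adaptor gene Dab2, which the rule did not use, went from 72.5 CPM (2 genes) to 179 CPM (3 genes) and 981 CPM (6 genes) in RA, and from 229.7 to 559.9 and 1215 CPM in OIR. Clec4n and Maf, also outside the rule, went from 232 to 111 and 450.1 CPM and from 261 to 229 and 829.6 CPM in RA, and from 149 to 433 and 854 CPM and from 195 to 238 and 556 CPM in OIR, so in RA both were lower just inside the limit than just outside. Cd74, of antigen presentation, stood at 2767, 1851, 1927 and 135 CPM with 3, 4, 5 and 6 genes in RA and at 4598, 671, 2167 and 427 CPM in OIR, where 5 cells held 65.9% of the RA and 82.0% of the OIR UMIs of the macrophages. The median depth of the cells with 3 genes was 12272 UMIs in RA but 2702 UMIs in OIR, against 12928 and 12126 UMIs with 6 genes, so in OIR the cells at the limit were also the shallow ones.

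**Figure D1:**
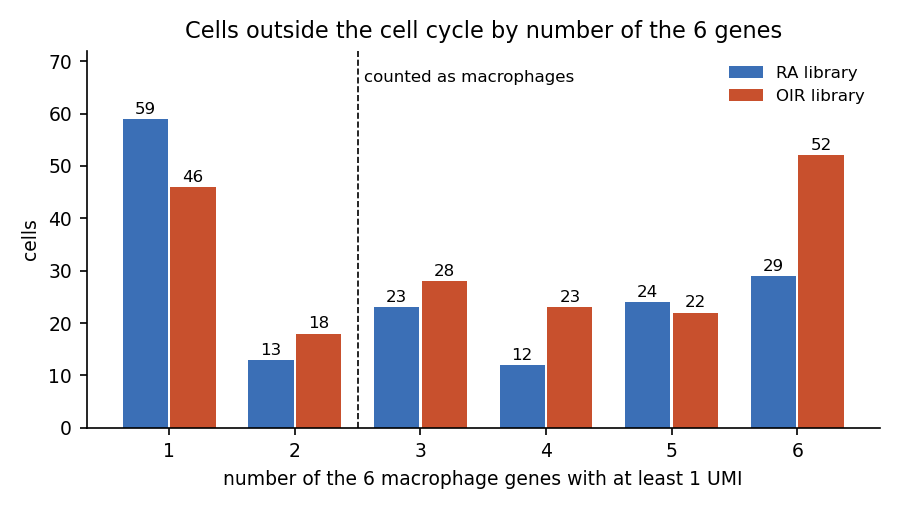
Number of cells (vertical axis) with 1 to 6 of the 6 macrophage genes detected (horizontal axis) in the RA and OIR libraries, for cells outside the cell cycle and under the mitochondrial limit. The dashed line is the limit of 3 genes, with 13 RA and 18 OIR cells just to its left, and cells with none of the genes are not drawn.

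Transcripts of the sorted markers, and of Ptprc, which was not sorted for, were found in most macrophages. Adgre1, which encodes F4/80, was detected in 93.2% of RA and 77.6% of OIR cells, Itgam, which encodes CD11b, in 69.3% and 54.4%, and Ptprc, which encodes CD45, in 81.8% and 62.4%. In rods of the same libraries, cells that should lack these genes, Ptprc was detected in 1.07% and 0.459% of cells, at median depths of 1748 and 1255.5 UMIs. These rods were chosen to hold no UMI of Csf1r, the gene of the CSF1 receptor. Their shares of myeloid genes, here and below, were thus partly set by that choice. Markers of other cell types were summed over each list: the 16 monocyte genes came to 464 CPM in RA, led by Plac8 at 119 CPM, the 9 neutrophil genes to 114 and 87.9 CPM with S100a9 at 0 in both libraries, the 12 lymphocyte genes to 156 and 166 CPM, and the 6 mast cell genes to 0. In OIR the monocyte genes came to 2637 CPM, of which Lyz2 alone was 2402 CPM, while Ly6c2, Chil3 and Vcan were at 0. The share of these genes in the macrophage levels was not tested. Haemoglobin and other red blood cell genes came to 86.6 CPM in RA and 2.29 CPM in OIR, and the 10 Mueller glia and astrocyte genes to 654 and 687 CPM, mostly of Glul, a glutamine synthetase that macrophages also make. Endothelial genes came to 62.6 and 47.4 CPM, and the 10 mural cell and fibroblast genes to 1.46 and 6.11 CPM. The 12 rod genes came to 289.6 CPM in RA and 1456 CPM in OIR, and the microglial genes, described further on, to more.

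The 2 libraries also differed as wholes, beyond the macrophages. Lyz2, the lysozyme of myeloid cells, was nearly absent from the RA library, at 14.6 CPM in macrophages, 0.383 CPM in microglia and 42.0 CPM in the 19 Ccr2-holding cells, against 2402, 674 and 8654 CPM in OIR, although the labels give 1 strain. Its neighbour Lyz1 stood at 21.1 and 28.5 CPM over all cells. Ribosomal protein genes, 82 of which were compared, had a median OIR over RA log2 ratio of -1.22 in macrophages, -1.20 in microglia and -1.21 in rods. The nuclear RNA Malat1 went from 16293 to 6361 CPM in macrophages, from 18889 to 6446 CPM in microglia and from 45580 to 25246 CPM in rods. Of the macrophages, 13 in RA and 44 in OIR held no Malat1 UMI, and these were shallow, at medians of 3241 and 2198.5 UMIs. Xist, transcribed from the inactive X chromosome of females, stood at 493 CPM over all RA cells and 149.8 CPM over all OIR cells, and the Y-linked Ddx3y at 85.1 and 76.2 CPM. What lay behind these differences was not tested, and OIR over RA values of the macrophages are given beside those of the microglia, except for genes at or near 0 in microglia.

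Against microglia, the macrophages carried several uptake receptors, chemokines and interferon-response genes at higher levels and homeostatic microglial genes at lower levels. Most of the higher receptor and interferon-response genes were under 50 CPM in microglia, so the filter given next fixed their direction. Genes at 50 CPM or more in either group were compared, and a gene was called when the groups differed 2-fold or more. In RA, 225 of 3139 genes were higher (7.17%) and 79 lower (2.52%) in macrophages, and in OIR 265 of 3298 were higher (8.04%) and 159 lower (4.82%). With the mean over cells in place of summed UMIs the counts were 297 and 257 in RA and 362 and 308 in OIR, and without doublets and the top 2% of cells by genes 255 and 136 in RA. Both libraries called 163 of 2764 genes higher (5.9%) and 53 lower (1.92%), and 2 genes (0.0724%) took opposite calls. Of the genes called higher, 175 of 225 in RA and 196 of 265 in OIR were under 50 CPM in microglia, and of those called lower 37 of 79 and 83 of 159 were under 50 CPM in macrophages. Such genes were compared through 1 cell type alone, so the filter fixed their direction, as for Cd38 and Bmp2 below. The median log2 ratio over all genes compared was -0.04 in RA and 0.02 in OIR. Since the rule chose both groups from the same counts, these numbers describe the groups and are no test, and cell cycle genes were limited by the rule in the macrophages alone.

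Genes known from border macrophages of other organs were listed without those used to choose the cells. Of a list of 30, 21 were compared in both libraries, and 17 were called higher in both, with a median log2 ratio of 3.52 in RA and 4.07 in OIR. Of the 21, 12 were under 50 CPM in the microglia of both libraries and could be called in 1 direction only, and 12 of the 17 were among these. Cd38, an enzyme that consumes NAD, was among the genes with the largest ratios outside the rule, with 200 UMIs in RA and 322 in OIR macrophages against 1 UMI in the microglia of each library, or 146 CPM in RA and 246 CPM in OIR macrophages. Its ratio was 1140.3-fold (202 to 45261) in RA and 994-fold (177 to 39399) in OIR. Bmp2, a secreted bone morphogenetic protein, had 785 and 505 UMIs in macrophages and 1 and 0 in microglia, that is 571 CPM in RA and 386 CPM in OIR, which was at least 519.9-fold higher in OIR at a floor of 3 UMIs. Clec4n, the lectin receptor Dectin-2 of fungal mannans, stood at 280.2 CPM in RA and 691 CPM in OIR macrophages, against 1.79 and 3.46 CPM in microglia, a log2 ratio of 7.29 (6.53 to 8.18) in RA and 7.64 (6.89 to 8.52) in OIR. These 3 genes were thus near 0 in microglia, whereas Clec4n was found in 80.7% and 90.4% of RA and OIR macrophages. Ednrb, the endothelin B receptor, stood at 90.2 CPM in RA and 148 CPM in OIR macrophages, against 0.638 and 0.247 CPM in microglia, and Ccr1, a receptor of CCL3 and CCL5, at 465 CPM in RA and 795 CPM in OIR macrophages, against 27.4 and 25.5 CPM in microglia. Dab2, an adaptor of endocytosis, stood at 619 CPM in RA and 1033 CPM in OIR macrophages, against 4.21 and 31.7 CPM in microglia, with a log2 ratio of 7.20 (6.70 to 7.75) in RA and 5.03 (4.77 to 5.30) in OIR. Among the largest ratios were also Cd93, a C-type lectin-like receptor, at 70.6 CPM in RA and 87.9 CPM in OIR, and Serpinb8, an intracellular protease inhibitor, at 126 CPM in RA and 128 CPM in OIR, each with at most 3 UMIs in the microglia of either library.

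**Figure D2:**
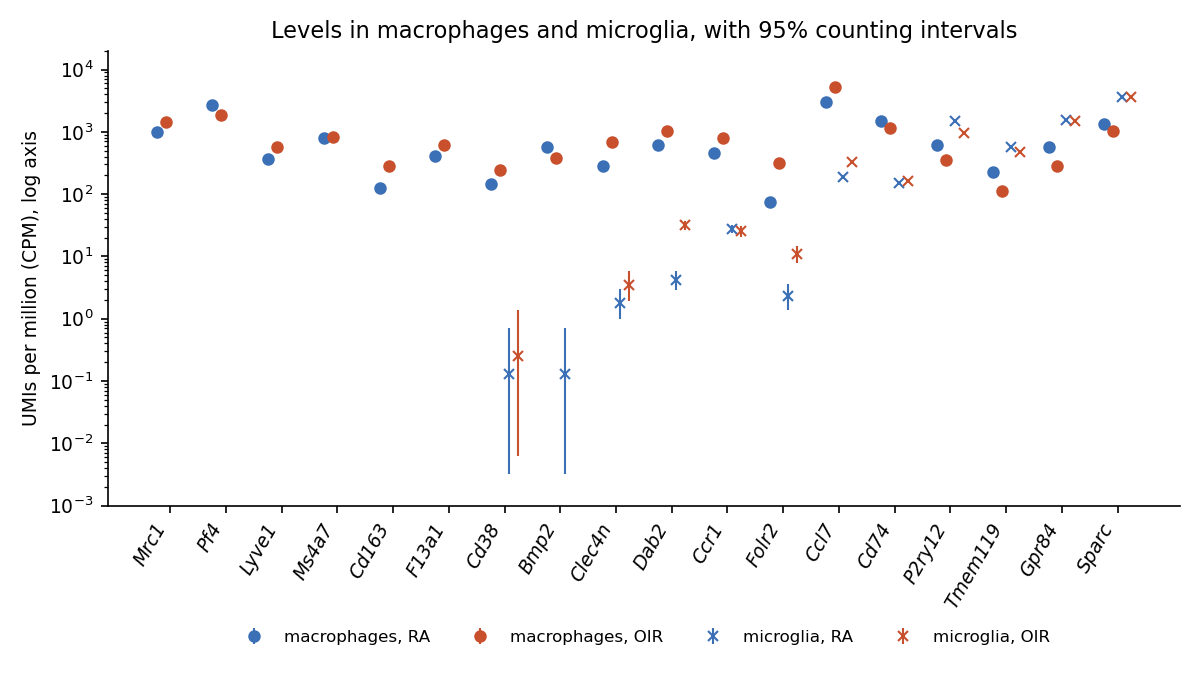
Levels in CPM (log axis) of the 6 genes of the rule and 12 further genes in macrophages (circles) and microglia (crosses) of the RA (blue) and OIR (orange) libraries, with 95% exact Poisson intervals. Groups at 0 UMIs are not drawn, which holds by rule for the 6 genes in microglia and by count for Bmp2 in OIR microglia, and P2ry12 to Sparc stand lower in macrophages in both libraries.

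Scavenger and lectin receptors take up proteins, lipids and sugars. Leaving out Mrc1, Cd163 and Lyve1, 10 of 16 compared genes were higher in both libraries and 0 lower, of which 8 higher genes of 8 compared were under 50 CPM in the microglia of both, so that the filter fixed their direction. Msr1, the scavenger receptor A of modified lipoproteins, stood at 85.9 CPM in RA and 118 CPM in OIR macrophages, against 0.894 and 9.65 CPM in microglia, Colec12, a scavenger receptor with a lectin domain, at 35.7 CPM in RA and 90.2 CPM in OIR macrophages, against 0 and 3.46 CPM in microglia, and Folr2, a folate receptor of tissue macrophages, at 75 CPM in RA and 316 CPM in OIR macrophages, against 2.30 and 10.9 CPM in microglia. The log2 ratios in RA and OIR were 6.59 and 3.62 for Msr1 and 5.03 and 4.86 for Folr2, while Colec12 was under 50 CPM in RA and compared in OIR alone. Stab1, stabilin 1, a scavenger receptor of sinus-lining cells and macrophages, stood at 372 CPM in RA and 667 CPM in OIR macrophages, against 82.2 and 115 CPM in microglia. Fcna, a ficolin that binds microbial sugars, stood at 75 CPM in RA and 170.4 CPM in OIR macrophages, against 0.766 and 3.22 CPM in microglia. By contrast Cd68, a lysosomal protein shared by macrophages and microglia, stood at 426 CPM in RA and 728 CPM in OIR macrophages, against 436 and 709.8 CPM in microglia, and Mertk, a receptor for dying cells, at 173 CPM in RA and 122 CPM in OIR macrophages, against 248 and 178 CPM in microglia, so neither differed 2-fold. In the Ms4a family, Ms4a6b, Ms4a6c and Ms4a6d were higher in both libraries beside Ms4a7 of the rule, with log2 ratios of 2.99 and 3.23 for Ms4a6b, 3.52 and 3.32 for Ms4a6c and 1.30 and 1.49 for Ms4a6d in RA and OIR.

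Chemokine ligands were abundant in both cell types, and 5 of 12 compared ligands other than Pf4 were higher in macrophages of both libraries. Ccl7, which draws monocytes through CCR2, stood at 2968 CPM in RA and 5316 CPM in OIR macrophages, against 186 and 326 CPM in microglia, with a log2 ratio of 4.0 (3.91 to 4.09) in RA and 4.03 (3.94 to 4.11) in OIR. Ccl2, of the same receptor, stood at 4099 CPM in RA and 6676 CPM in OIR macrophages, against 1194 and 2329 CPM in microglia, Cxcl2, which draws neutrophils, at 3802 CPM in RA and 4091 CPM in OIR macrophages, against 335 and 769 CPM in microglia, and Ccl24, which draws eosinophils, at 281 CPM in RA and 245 CPM in OIR macrophages, against 4.85 and 7.42 CPM in microglia. Ccl3 and Ccl4, chemokines that microglia make in quantity, did not differ 2-fold, with log2 ratios of 0.05 and -0.30 for Ccl3 and -0.37 and -0.59 for Ccl4. Cx3cr1, the fractalkine receptor, stood at 1662 CPM in RA and 550.3 CPM in OIR macrophages, against 2025 and 802 CPM in microglia, within 2-fold in both libraries.

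Interferon-response genes stood higher in macrophages of both libraries for 14 of 17 compared genes, with medians of 2.95 in RA and 2.31 in OIR. Of the 17, 10 were under 50 CPM in the microglia of both libraries and could not be called lower, and 9 of the 14 were among these. Ifitm3, a membrane protein that blocks virus entry, stood at 850 CPM in RA and 556 CPM in OIR macrophages, against 72.1 and 88.4 CPM in microglia, and Bst2, the virus tether tetherin, at 746 CPM in RA and 719 CPM in OIR macrophages, against 124 and 151 CPM in microglia. Bst2 had at least 1 UMI in 98.9% of RA and 93.6% of OIR macrophages, which does not show how evenly its UMIs were spread. Irf7, a factor that amplifies interferon signals, had log2 ratios of 3.14 and 2.44, and Oasl2 of 4.14 and 3.43. Cxcl10 went the other way in OIR, at 747 CPM in RA and 435 CPM in OIR macrophages, against 873 and 1425 CPM in microglia. MHC class I genes, which interferons also raise, were called higher in both libraries for 0 of 10 genes.

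The MHC class II gene H2-Aa was held by few macrophages, whereas Cd74 was held by 63.6% of RA and 52.8% of OIR macrophages and by 48.0% and 49.4% of microglia. H2-Aa stood at 406 CPM in RA and 251 CPM in OIR macrophages, against 9.96 and 1.98 CPM in microglia, yet had a UMI in 13 of 88 RA and 6 of 125 OIR cells, and a single OIR cell held 44.1% of its UMIs. Cd74, the invariant chain that guides class II molecules, stood at 1515 CPM in RA and 1172 CPM in OIR macrophages, against 151 and 163 CPM in microglia, with 32.6% of the OIR UMIs in 1 cell. H2-Ab1 stood at 351 CPM in RA and 217 CPM in OIR macrophages, against 28.8 and 47.3 CPM in microglia, but at a log2 ratio of -1.48 in OIR when the rule was applied to thinned cells. A UMI of H2-Aa or H2-Ab1 was found in 28.4% (19.3% to 39.0%) of RA and 13.6% (8.13% to 20.9%) of OIR macrophages, and in 22.2% and 28.4% of microglia and 0.356% and 0.917% of rods. When 1500 UMIs were drawn from each cell, and the 3 RA and 12 OIR macrophages below that depth set aside, the shares were 12.9% (6.64% to 22.0%) and 5.31% (1.97% to 11.2%) in macrophages and 3.29% and 7.13% in microglia. Most H2-Aa UMIs lay in a small part of the macrophages, 82.4% in 5 RA and 99.7% in 5 OIR cells, and in OIR the thinned share of macrophages was the lower one, with an interval that held the value of the microglia. Macrophages with a class II UMI were deep, at medians of 20890 UMIs in RA (25 cells) and 17443 UMIs in OIR (17 cells).

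Complement and Fc receptor genes split. The C1q genes, abundant in both cell types, were within 2-fold, with C1qa at 5617 CPM in RA and 8169.8 CPM in OIR macrophages, against 6096 and 9276 CPM in microglia. Cfp, the properdin that stabilises the alternative pathway convertase, stood at 75 CPM in RA and 259.9 CPM in OIR macrophages, against 2.30 and 5.94 CPM in microglia, and C2, of the classical pathway, at 50.2 CPM in RA and 121 CPM in OIR macrophages, against 1.02 and 2.97 CPM in microglia. The inhibitory Fc receptor Fcgr2b stood at 493 CPM in RA and 829 CPM in OIR macrophages, against 190.4 and 213 CPM in microglia, and Fcgrt, the neonatal Fc receptor that recycles IgG, at 361 CPM in RA and 1004 CPM in OIR macrophages, against 119 and 178 CPM in microglia. In all, 4 of 14 genes compared were higher in both libraries and 0 lower in both.

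Among genes of heme and iron handling, Cp, the copper ferroxidase ceruloplasmin, stood at 254 CPM in RA and 272 CPM in OIR macrophages, against 0.255 and 2.97 CPM in microglia, with a log2 ratio of 9.96 (8.09 to 13.01) in RA and 6.52 (5.69 to 7.48) in OIR. Blvra and Blvrb, which reduce biliverdin and related pigments, had log2 ratios of 1.70 and 1.83 for Blvra and 2.04 and 1.88 for Blvrb in RA and OIR, whereas Hmox1, the stress-inducible heme oxygenase, stood at 1219 CPM in RA and 785 CPM in OIR macrophages, against 1575 and 1988 CPM in microglia and was lower in OIR. In lipid handling, Pltp, the phospholipid transfer protein, stood at 129 CPM in RA and 129.9 CPM in OIR macrophages, against 1.79 and 3.22 CPM in microglia, and Pla2g7, the platelet-activating factor hydrolase of plasma, at 203 CPM in RA and 394 CPM in OIR macrophages, against 4.47 and 26.5 CPM in microglia. Apoe, apolipoprotein E, stood at 34251 CPM in RA and 41117 CPM in OIR macrophages, against 20366 and 18214 CPM in microglia, with log2 ratios of 0.75 and 1.17. Of the heme and iron list without Cd163 of the rule, 3 of 10 compared genes were higher in both libraries, and of the lipid list 5 of 13, with 0 lower in both in either list.

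Of the list of growth and angiogenic factors and their partners, 7 of 15 compared genes were higher in both libraries. Beside Bmp2, these were Igf1, Hbegf, Gas6, Spp1, Nrp1 and Igfbp4. Igfbp4, which binds insulin-like growth factors, stood at 206 CPM in RA and 729 CPM in OIR macrophages, against 36.9 and 43.3 CPM in microglia, Gas6, the ligand of the TAM receptors, at 336 CPM in RA and 881 CPM in OIR macrophages, against 122 and 279 CPM in microglia, and Nrp1, a receptor of VEGF and semaphorins, at 201 CPM in RA and 308 CPM in OIR macrophages, against 93.8 and 97.3 CPM in microglia. Igf1 stood at 101 CPM in RA and 197 CPM in OIR macrophages, against 20 and 66.8 CPM in microglia. Spp1, which encodes osteopontin, stood at 108 CPM in RA and 421 CPM in OIR macrophages, against 4.98 and 169 CPM in microglia, and 1 cell held 34.7% of its UMIs in OIR macrophages. Pdgfb, the B chain of platelet-derived growth factor, was lower in OIR alone by the 2-fold call, at 203 CPM in RA and 74.9 CPM in OIR macrophages, against 339 and 264 CPM in microglia. Of 32 transcription factors compared in both libraries, Maf, Irf7 and Nr4a2 were higher in both and Sall1, Sall3, Smad7 and Bhlhe41 lower. Maf stood at 604 CPM in RA and 462 CPM in OIR macrophages, against 192 and 106 CPM in microglia, with a log2 ratio of 1.66 (1.53 to 1.78) in RA and 2.12 (1.94 to 2.30) in OIR, while Sall1 and Sall3, factors of microglia, had log2 ratios of -1.31 and -2.01 and of -1.41 and -2.18. Spi1, already given above, and Irf8 were within 2-fold in both libraries. Of the genes called higher in both libraries, 2 of 5 chemokine ligands, 2 of 4 complement and Fc receptor genes, 1 of 3 heme and iron genes, 4 of 5 lipid genes and 3 of 7 growth and angiogenic factors were likewise under 50 CPM in the microglia of both. So were 2 of the 3 higher transcription factors, while 2 of the 4 lower were under 50 CPM in the macrophages of both libraries. The filter thus fixed the direction of these genes.

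Lower in macrophages of both libraries were 14 of 20 microglial genes, or 12 of 18 without P2ry12 and Tmem119, which were used to choose the microglia. Among the lowest ratios by the smaller of the libraries were those of Adamts1, a secreted metalloprotease, Ecscr, a surface protein first known from endothelium, Chst1, a sulfotransferase of glycans, Nav2, a neuron navigator protein, Cd34, a sialomucin, Gpr84, Clcf1, a cytokine of the interleukin 6 family, Sparc, Sall3, Smad7 and Serpine2, a protease inhibitor. Adamts1 stood at 56.8 CPM in RA and 32.9 CPM in OIR macrophages, against 184 and 167 CPM in microglia. Sparc, a matrix protein of microglia, stood at 1335 CPM in RA and 1022 CPM in OIR macrophages, against 3590 and 3654 CPM in microglia, and Gpr84, a fatty acid receptor, at 575 CPM in RA and 284 CPM in OIR macrophages, against 1568 and 1502 CPM in microglia. The log2 ratios in RA and OIR were -1.43 and -1.84 for Sparc and -1.45 and -2.40 for Gpr84, so the levels were lower but far from 0. Smad7, the inhibitor of TGF-beta signals, stood at 73.5 CPM in RA and 67.3 CPM in OIR macrophages, against 194 and 177 CPM in microglia. In the cytokine list, Il12b, a subunit of interleukin 12, had 1 UMI in the macrophages of each library against 40.6 and 98.0 CPM in microglia. In RA it was under 50 CPM in both groups and not compared, and in OIR it could only be called lower. Il1a stood at 931 CPM in RA and 825 CPM in OIR macrophages, against 2251 and 2838 CPM in microglia. Il1b, at 2165 CPM in RA and 2269 CPM in OIR macrophages, against 1462 and 2290.5 CPM in microglia, did not differ 2-fold. Of 13 glycolytic genes compared in both libraries Ldhb, a lactate dehydrogenase subunit, was lower in both and 0 were higher, with medians of -0.28 in RA and -0.66 in OIR. Of 24 immediate early genes, which tissue dissociation can raise, 0 were called the same way in both libraries, and of 24 lysosomal genes Ctsc and Gpnmb were higher in both and 1 was lower in both. The receptor Csf1r, on which both cell types depend, stood at 2055 CPM in RA and 1568 CPM in OIR macrophages, against 2598 and 2034 CPM in microglia, within 2-fold.

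**Figure D3:**
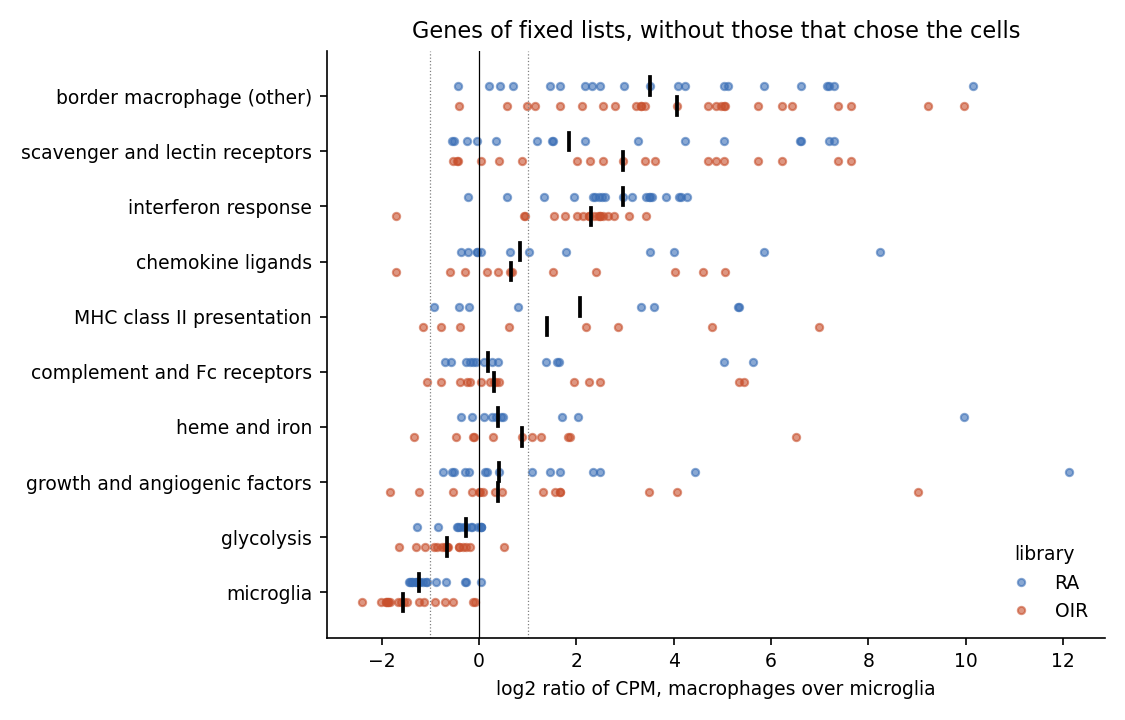
Log2 ratio of macrophages over microglia (horizontal axis) for each compared gene of 10 fixed lists, without the 6 genes of the rule, P2ry12 and Tmem119, in the RA (blue) and OIR (orange) libraries. Each point is a gene, black bars are list medians and dotted lines mark 2-fold, with medians of 3.52 and 4.07 for other border macrophage genes and of -1.23 and -1.57 for microglial genes.

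Microglial transcripts were nonetheless found in most macrophages. P2ry12 stood at 618 CPM in RA and 347 CPM in OIR macrophages, against 1474 and 956 CPM in microglia, and Tmem119 at 227 CPM in RA and 112 CPM in OIR macrophages, against 563 and 465 CPM in microglia. At least 1 UMI of either was present in 85.2% (76.1% to 91.9%) of RA and 60% (50.9% to 68.7%) of OIR macrophages, or 44.7% and 30.1% after thinning to 1500 UMIs. In rods the shares were 1.42% and 2.29% without thinning, and in microglia, chosen for these genes, 94.1% and 84.3% with thinning. With rods thinned to the same number of UMIs, 1 of 176 RA and 0 of 86 OIR rods held either gene, the latter allowing a share of up to 3.49% at 3 cells or 4.20% by the exact interval. Since the rods were chosen without a Csf1r UMI, they are no unselected measure of stray microglial RNA. The 13 RA and 50 OIR macrophages without these genes were shallow, with medians of 4338 and 2603.5 UMIs, and both libraries called 27 of 2802 genes higher (0.964%) and 101 lower (3.6%) in them than in the rest. In RA 425 of 3322 genes were higher (12.8%) and 489 lower (14.7%) in them, and in OIR 241 of 3586 were higher (6.72%) and 318 lower (8.87%). In these cells Sparc stood at 0 CPM in RA and 45.5 CPM in OIR, against 1397 and 1173 CPM in the rest. Mrc1 stood at 1370.1 and 1469 CPM in the cells without and at 962 and 1419.6 CPM in those with P2ry12 or Tmem119. Scrublet called 4 RA and 2 OIR cells of all as doublets, too few to show that the caller worked, so cells that hold 2 cell types were not tested for.

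Lyve1 divided the macrophages into 46 positive and 42 negative cells in RA and 75 and 50 in OIR, with median depths of 12450 and 8931.5 UMIs in RA and 9948 and 3998.5 UMIs in OIR. In RA 102 of 3145 genes were higher (3.24%) and 48 lower (1.53%) in the positive cells, and in OIR 106 of 3311 were higher (3.2%) and 51 lower (1.54%). Both libraries called 32 of 2733 genes higher (1.17%) and 6 lower (0.22%) in the positive cells, as a description, since the cells were split by their own counts. The log2 ratio of positive over negative cells for Folr2 was 2.53 in RA and 2.06 in OIR, for Cd163 2.07 in RA and 1.99 in OIR, for Fcna 3.31 in RA and 2.51 in OIR, for Ccl7 2.56 in RA and 2.09 in OIR and for Ccl24 1.36 in RA and 2.97 in OIR. These 5 genes, of which Cd163 belongs to the rule, were thus 2-fold or more higher in the cells with Lyve1 in both libraries. Cd74 had log2 ratios of -1.45 in RA and -1.01 in OIR, and H2-Aa, within 2-fold, of -0.73 in RA and -0.76 in OIR, both with most of their UMIs in a few cells. A class II UMI was found in 15.2% (6.34% to 28.9%) of Lyve1-positive and 42.9% (27.7% to 59.0%) of Lyve1-negative RA cells, but in 13.3% (6.58% to 23.2%) and 14% (5.82% to 26.7%) in OIR. The class II shares thus lay apart in RA, though their intervals overlapped, and close together in OIR. The cells without Lyve1 were the shallower ones in both libraries, and the difference between the libraries was not tested.

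Monocytes can share F13a1 and Ms4a7 with macrophages, so the 19 RA and 28 OIR cells with a Ccr2 UMI, fewer than 3 of the 6 genes and no P2ry12 or Tmem119 were set beside them. Ccr2 itself stood at 6.55 CPM in RA and 26.8 CPM in OIR macrophages. In both libraries 353 of 3164 genes were higher (11.2%) and 389 lower (12.3%) in macrophages. Higher were C1qa, with log2 ratios of 4.91 in RA and 3.49 in OIR, Apoe with 3.22 in RA and 2.59 in OIR and Maf with 1.73 in RA and 2.31 in OIR. Lower were Plac8, a gene of blood myeloid cells, with -4.94 in RA and -5.78 in OIR, S100a4 with -4.86 in RA and -6.91 in OIR, Cd74 with -2.51 in RA and -3.25 in OIR and Ly6c2 with -7.38 in RA and -6.67 in OIR, where Ly6c2 had 0 UMIs in OIR macrophages and its OIR value is set by a floor of 3 UMIs. Of 20 interferon-response genes, 4 were higher and 6 lower in macrophages in RA, and 7 and 3 in OIR. Of the scavenger and lectin receptors, with the 3 of the rule, 8 of 25 were higher and 9 lower in RA, and 11 of 26 and 7 in OIR. Of 14 chemokine ligands with Pf4, 9 were higher and 3 lower in RA, and 10 and 3 in OIR. Over all genes compared, 17.1% were higher and 19.9% lower in RA, and 15.6% and 17.6% in OIR. With 214044 and 192740 UMIs in these small groups, the ratios of rare genes were wide.

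A further 15 RA and 46 OIR cells met the 6-gene rule with 2 or more UMIs of Top2a and Mki67 and were left out as dividing. They made up 14.6% (8.39% to 22.9%) of all cells meeting that rule in RA and 26.9% (20.4% to 34.2%) in OIR. Mrc1 stood at 892 CPM in RA and 934 CPM in OIR dividing cells and Pf4 at 2538 CPM in RA and 1092 CPM in OIR. In RA 185 of 3322 genes were higher (5.57%) and 67 lower (2.02%) in dividing than in the other macrophages, and in OIR 125 of 3429 were higher (3.65%) and 39 lower (1.14%). These cells were deep, at medians of 20899 and 24861 UMIs, and P2ry12 stood at 406 CPM in RA and 337 CPM in OIR in them.

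Between OIR and RA, macrophages carried several scavenger receptor, complement and glycolytic genes and Igfbp4 at higher levels in the OIR library, and ribosomal protein genes, Cx3cr1 and the chemokine Ccl12 at lower levels. Of 3393 genes compared, 258 were higher (7.6%) and 247 lower (7.28%) in OIR, and the median log2 ratio of all of them was 0.12. Of these, 138 of the 258 were under 50 CPM in RA and 117 of the 247 under 50 CPM in OIR, and were compared through the other library alone, so that the filter fixed their direction. Without genes called the same way in rods 251 were higher and 136 lower. Of the lower genes, 146 of 214 compared in microglia and 111 of 157 compared in rods were lower there too. The higher genes were also higher there for 83 of 181 and 7 of 135. After ratios were centred on their median of 0.12 the counts were 161 and 305, and without ribosomal protein, mitochondrial genes and Malat1 in the totals 187 and 284. The mean over cells gave 496 higher and 335 lower, so the split of the calls depends on the scaling. Without macrophages that held P2ry12 or Tmem119 the counts were 848 and 638. Of the 247 lower genes 49 encode ribosomal proteins, and the microglia of the same libraries gave 204 of 3198 genes higher (6.38%) and 187 lower (5.85%), and the rods 92 of 3547 higher (2.59%) and 195 lower (5.5%). Each value is a difference between 2 pooled libraries, with no replicate check.

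Lyz2, with 20 UMIs in RA and 3143 in OIR macrophages, had the largest log2 ratio, 7.37 (6.74 to 8.08), but it was nearly absent from the RA library as a whole, as given above, and its ratio in microglia was 10.78. Vcam1, an adhesion molecule that binds the integrin VLA4, had 30 and 222 UMIs, or 21.8 CPM in RA and 169.7 CPM in OIR macrophages, a log2 ratio of 2.96 (2.40 to 3.56) against 0.29 in microglia. Clec10a, a receptor for galactose-type sugars, stood at 8.01 CPM in RA and 55.8 CPM in OIR, Cd209f, a relative of DC-SIGN, at 24.7 CPM in RA and 123 CPM in OIR, and Cbr2, a carbonyl reductase, at 21.1 CPM in RA and 107 CPM in OIR, where Cd209f had 52.9% of its RA UMIs in 1 cell. All 3 were near 0 in microglia of both libraries, at most 1.24 CPM. Lyz2, Vcam1, Clec10a, Cd209f and Cbr2, like Stmn1, Tnfsf9, Plk2 and C4b below, were under 50 CPM in RA and could only be called higher. Folr2 had a log2 ratio of 2.08 (1.76 to 2.40), and 2.24 in microglia, where it stood at 2.30 and 10.9 CPM. Of the 25 compared genes of the border macrophage list 10 were higher and 0 lower, and of 22 scavenger and lectin receptors 7 higher and 0 lower, the border macrophage genes at a median of 0.77. Of these, 4 of the 10 and 3 of the 7 were under 50 CPM in RA and were compared through OIR alone, so they could be called in 1 direction only. The 22 receptors included Mrc1, Lyve1 and Cd163, which were used to choose the cells, and Cd163 was among the 7 higher. In microglia 1 of 9 border macrophage genes was higher and 1 lower, at a median of 0.48, and of 8 scavenger and lectin receptors 0 were called. Igfbp4 went from 206 to 729 CPM, a log2 ratio of 1.82 (1.63 to 2.02) against 0.23 in microglia. Stmn1, a microtubule protein of proliferating cells, stood at 28.4 CPM in RA and 214 CPM in OIR macrophages, with a log2 ratio in microglia of 3.23 against 2.91 (2.43 to 3.44) in macrophages. Tnfsf9, a ligand of the tumour necrosis factor family, stood at 10.9 CPM in RA and 56.6 CPM in OIR, with a log2 ratio of 2.37 and of 2.65 in microglia. In macrophages without P2ry12 and Tmem119 its ratio was -3.12, but these cells held only 60581 UMIs in RA and 175653 in OIR. That value thus rests on very few UMIs. Plk2, a kinase induced by growth signals and stress, stood at 28.4 CPM in RA and 155 CPM in OIR, and Npl, an enzyme that cleaves sialic acid, at 60.4 CPM in RA and 296 CPM in OIR, with log2 ratios of 2.45 and 2.29 and of 0.78 and 1.66 in microglia.

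Of the 15 complement and Fc receptor genes compared, C2, C4b, Cfp and Fcgrt were higher in OIR, with C4b at 18.2 CPM in RA and 79.5 CPM in OIR and Cfp at 75 CPM in RA and 259.9 CPM in OIR, with log2 ratios of 2.13 (1.49 to 2.82) and 1.79 (1.47 to 2.13) and of 1.98 and 1.37 in microglia. Spp1 had a log2 ratio of 1.96 (1.69 to 2.23) in macrophages, with UMIs in 8 RA and 39 OIR cells, and of 5.09 in microglia. Plin2, a coat protein of lipid droplets, had 1.55 (1.31 to 1.79) in macrophages and 1.61 in microglia. Of 15 glycolytic genes compared Pfkl, Gapdh, Pgk1, Pgam1, Eno1 and Ldha were higher and Hk2 lower, with a median log2 ratio of 0.98 in macrophages, 0.85 after centring, and 1.22 in microglia. Of the 6 higher, 1 was under 50 CPM in RA and could only be called higher. Gapdh stood at 704 CPM in RA and 1712 CPM in OIR macrophages and at 685 CPM in RA and 2279.8 CPM in OIR microglia, and Pgk1 at 72 CPM in RA and 237 CPM in OIR macrophages and 70.3 CPM in RA and 297 CPM in OIR microglia. Hk2, a hexokinase, stood at 183 CPM in RA and 68.0 CPM in OIR, with a log2 ratio of -1.43 and of -1.12 in microglia. Hypoxia target genes gave 0 calls among 5 compared. Of all genes 7.6% were called higher and 7.28% lower, so 5 genes are too few to differ from that share.

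Microglial genes were lower in OIR macrophages for 5 of 19 compared and lower in OIR microglia for 1 of 20. Both counts include P2ry12 and Tmem119, which all of these microglia had to hold, so the microglial count was partly set by the choice of cells. Lower in OIR macrophages were Cx3cr1, at 1662 CPM in RA and 550.3 CPM in OIR, with a log2 ratio of -1.59 (-1.72 to -1.47) and of -1.34 in microglia, and Ccl12, a monocyte chemokine, at 2776 CPM in RA and 1078 CPM in OIR, with -1.36 (-1.45 to -1.28) and -0.96. Cyp51, of sterol synthesis, stood at 62.6 CPM in RA and 13.8 CPM in OIR, with a log2 ratio of -2.19 (-3.01 to -1.44) and of -0.82 in microglia. Clec2d, a lectin-like ligand of NK cell receptors, went from 147 to 19.9 CPM, and Errfi1, an inhibitor of EGF receptor signals, from 128 to 25.2 CPM, with log2 ratios in microglia of -1.46 and -1.36. Cyp51, Clec2d and Errfi1, like Crip1, Tmsb10, Usmg5, Mrpl52 and Ndufb2 below, were under 50 CPM in OIR and could only be called lower. Isg15 was the interferon-response gene lower in OIR, at 249.6 CPM in RA and 92.5 CPM in OIR, and Oas1a, under 50 CPM in RA, the one higher, at 32.7 CPM in RA and 90.2 CPM in OIR, with log2 ratios in microglia of -0.82 and 2.15. The median of the 20 compared was -0.39 in macrophages, and that of the 7 compared in microglia was 0.32. Crip1 had the lowest ratio, -3.37 (-4.14 to -2.70), and -0.06 in microglia, but 72.9% of its RA UMIs lay in 1 cell. Tmsb10, which sequesters actin monomers, and the small mitochondrial proteins Usmg5, Mrpl52 and Ndufb2 had log2 ratios of -3.27, -2.36, -2.20 and -2.14, and of -2.12, -1.99, -1.50 and -1.54 in microglia, the same way in both cell types. None of the compared MHC class II genes was called in either direction (0 of 8), too few genes to differ from the 7.6% higher and 7.28% lower over all genes.

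Rod transcripts stood higher in OIR macrophages, although 7 of the 8 rod genes compared were under 50 CPM in RA and entered through OIR alone, so that their direction was fixed by the filter. Sag, the arrestin of rods, stood at 32.0 CPM in RA and 246 CPM in OIR, a log2 ratio of 2.94 against -0.79 in microglia. The 12 rod genes came to 289.6 CPM in RA and 1456 CPM in OIR macrophages. These UMIs came from few cells: 5 OIR macrophages held 90.4% of those of 8 rod genes, and up to 6.72% of a cell's UMIs were of these genes. Without the 3 RA and 5 OIR macrophages at 0.5% or more rod UMIs, Sag stood at a log2 ratio of 0.96 between OIR and RA. Pf4, Mrc1 and Ms4a7 were within 2-fold between the libraries, with OIR over RA log2 ratios of -0.55 (-0.62 to -0.47), 0.54 (0.44 to 0.64) and 0.07 (-0.05 to 0.20), and Cd163 was at 1.18 (0.91 to 1.45). The plot of both cell types shows that Spp1 and Lyz2 lay farther out in microglia than in macrophages and that Ptgs2, the inducible prostaglandin synthase, moved in opposite directions.

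**Figure D4:**
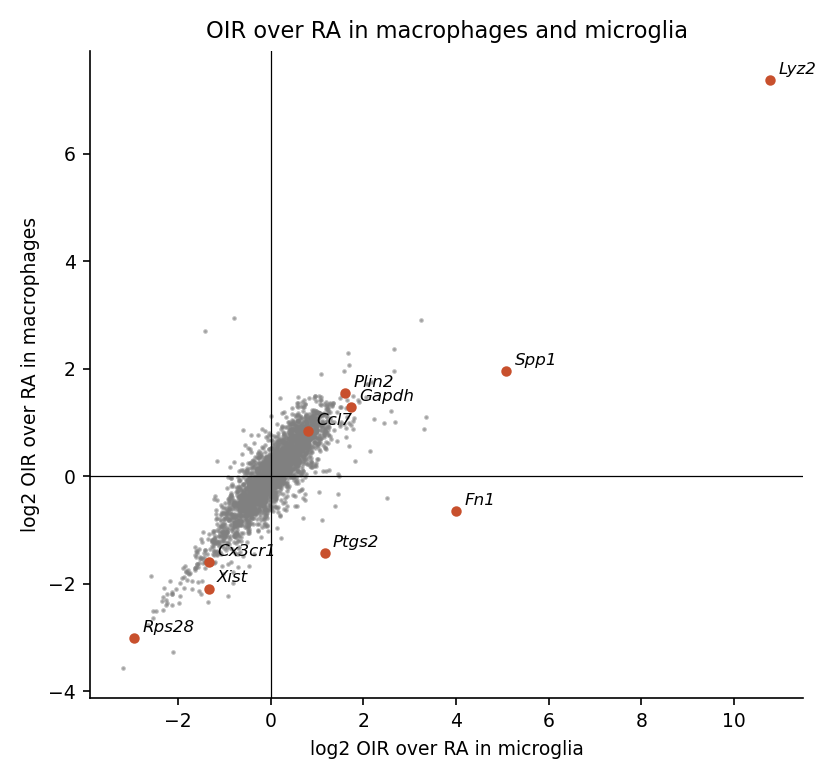
Log2 ratio of OIR over RA in microglia (horizontal axis) and macrophages (vertical axis) for each of the 2918 genes compared in both, with named genes in orange. Both axes come from the same 2 libraries, so differences between the libraries as wholes, such as those of Lyz2, Xist and the ribosomal protein gene Rps28, move points along the diagonal.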

How the data were processed

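Retinal cells of C57BL/6j mice at P17 were sorted for CD11b and F4/80 after pooling of retinas, 1 sample in RA and 1 in OIR, and made into 10x 3′ V3 libraries. The authors deposited UMI counts per gene and cell, not normalized, and per the file headers these came from Cell Ranger 3.1.0; the submitters' processing notes also name Seurat 4.0 and mm10. The files held 31053 genes and 1449 and 1259 barcodes, where the labels name an aim of about 2000 cells per sample, with totals of 12810892 UMIs in RA and 9835402 UMIs in OIR. From these counts levels, log2 ratios and exact 95% intervals (Poisson, Clopper-Pearson and conditional) were computed with Python 3.11.15, scipy 1.17.1 and pandas 2.3.3. Genes at 50 CPM or more in either group with 3 or more UMIs were compared. A count of 0 UMIs was set to 3 UMIs per group for ratios. Shares were repeated after thinning each cell to 1500 UMIs. Rods were cells under the mitochondrial limit with at least 5% of UMIs from 8 rod genes and no Csf1r UMI. Doublets called by Scrublet (scanpy 1.11.5) were kept in the main values. Named genes were the 12 largest and 12 lowest ratios per contrast and the 4 largest of each gene list, together with the 6 genes of the rule, P2ry12 and Tmem119, and any further gene named was picked after its values were seen. The members and lists were chosen with earlier results of these data known. The calls were tested on simulated data, in which 100% of genes raised 4-fold and 97.7% of those lowered 4-fold between macrophages and microglia in RA were recovered. Between OIR and RA macrophages, 100% of genes raised and 90.4% of those lowered 4-fold were recovered and 1.65% of unchanged genes were called. The simulated sums were Poisson draws from a shared profile, without spread between cells or libraries. The simulation thus covers counting error alone and does not show how often the calls would be wrong between libraries. Alternatives covered the rule, depth, doublets, scaling and filters, and 3 of them were added after seeing the data. Some genes are not reported here, though they stayed in the sums and counts.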

Additional observations from a re-analysis of the deposited data

Results flagged for a closer look

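Several genes lay 2-fold or more apart in opposite directions in the 2 libraries or in the 2 cell types, and none of these differences was tested. Fn1, which encodes fibronectin, had a log2 ratio of macrophages over microglia of 3.53 in RA and -1.13 in OIR, and 1 RA macrophage held 60.6% of its UMIs. With at least 2 of the 6 genes the OIR ratio was 0.41, so the opposite directions did not hold. Sag, the arrestin of rods, had ratios of -1.34 in RA and 2.39 in OIR in the same comparison. The RA ratio turned to 1.22 with at least 2 genes, 0.76 without doublets and the top 2% of cells and 0.37 with the mean over cells, and the OIR ratio to -0.70 without macrophages rich in rod UMIs and -0.78 with the rule applied after thinning. Between OIR and RA, Ptgs2 had a log2 ratio of -1.42 in macrophages and 1.16 in microglia. Outside the macrophages and microglia, Lyz2 stood at 42.0 CPM in the 19 RA and 8654 CPM in the 28 OIR cells with a Ccr2 UMI, fewer than 3 of the 6 genes and no P2ry12 or Tmem119 UMI, and 4.22 CPM and 1399.5 CPM over all cells of each library.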

How the results depend on the processing

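With 1 library per condition the intervals cover counting alone, and differences between mice, sorts and libraries cannot be told apart from those between OIR and RA. No paired analysis was possible because each group had 1 sample. The 13 counts, shares and list medians that were recomputed stayed close to their values with at least 2 of the 6 genes, with F13a1 dropped, with cells of at least 2000 UMIs, with a mitochondrial limit of 10%, and without macrophages that held Ccr2 or Ly6c2 or 0.5% or more rod UMIs.
Leaving out macrophages with a P2ry12 or Tmem119 UMI kept 13 RA and 50 OIR cells. The shares of macrophages fell to 0.982% in RA and 4.15% in OIR, the genes called against microglia were 682 higher and 659 lower in RA and 537 and 482 in OIR, those between OIR and RA 848 and 638, the glycolysis median 1.40, and the class II shares 15.4% and 2%. The OIR over RA ratios turned to 2.37 for Gpr84, 0.46 for Pdgfb, 0.049 for Spata13, -3.12 for Tnfsf9, -1.19 for Vim and -0.80 for Rp1. These cells held 60581 UMIs in RA and 175653 UMIs in OIR, so ratios of rare genes rest on few UMIs. Counts of 0 were set to 3 UMIs, so such turns do not show a reversal.
With at least 4 of the 6 genes the shares of macrophages were 4.91% and 8.06%, 125 genes were lower in RA, and 69.1% of OIR macrophages held P2ry12 or Tmem119. With at least 2 genes, the ratios over microglia were 0.41 for Fn1 in OIR and 1.22 for Sag in RA, and those of OIR over RA -0.056 for Pdc and -0.15 for Rp1.
With the rule applied after thinning, 158 genes were lower in RA, the class II share in RA was 18.2%, the OIR ratios over microglia were -1.48 for H2-Ab1, -0.18 for H2-Eb1 and -0.78 for Sag, and Plac8 had an OIR over RA ratio of 0.56. With cells thinned before counting, the class II shares were 12.9% and 5.31% and those of P2ry12 or Tmem119 44.7% and 30.1%.
Without a CPM filter, more genes were compared, and the counts were 2409 higher and 751 lower in RA, 1994 and 960 in OIR, and 1613 and 1063 between OIR and RA. Taking the mean over cells gave 257 lower in RA, 308 lower in OIR, 496 higher between OIR and RA, and 0.37 for Sag in RA. Leaving out doublets and the top 2% of cells by genes gave 136 lower in RA and 0.76 for Sag in RA. Centring gave 161 genes higher in OIR than in RA.
Of the choices made after seeing the data, leaving out macrophages without Malat1 gave a share of 6.73% and a P2ry12 or Tmem119 share of 81.5% in OIR. Leaving out genes called the same way in rods gave 136 lower between OIR and RA. Without macrophages at 0.5% or more rod UMIs, the OIR ratios over microglia were -0.23 for Pdc, -0.24 for Rp1 and -0.70 for Sag. The causes of these changes were not tested.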
